A study of Sus scrofa with 40 samples.

Results

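The genes described here are 10 genes that fat cells use, ADIPOQ, LEP, FABP4, LPL, PLIN1, CIDEC, PPARG, DGAT2, SCD and FASN, read in pieces of pig kidney. They were taken from the array by symbol, in every non-control row whose gene name or description gives 1 of them, which found 13 identifiers with 42 probes among 35955 identifiers with 43803 probes. The set was selected on measured values, since ADIPOQ had been seen to be high on some arrays of warm ischemia corticomedullary junction (CMJ). ADIPOQ is therefore described without a test throughout, and so is every member in any comparison that uses that group.

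Kidneys of Large White pigs, 3 months old, were sampled in the cortex (C) and in the CMJ, and each of the 40 samples was read on 1 single-color array. Control kidneys (Ctl) were removed, sampled and frozen at once. In the warm ischemia group (WI) the kidneys were clamped, removed, held clamped for 60 min at 37 °C and then sampled. In the groups WI+CS6h and WI+CS24h, warm ischemia was followed by a flush with cold University of Wisconsin solution and storage at 4 °C, and from each of the 5 kidneys tissue was taken at 6 h and once more at 24 h. This gives 8 groups of 5 arrays from 15 kidneys, and the labels number the samples of a group from 1 to 5, so that WI-CMJ 3 is the third sample of warm ischemia CMJ. The kidneys were not reperfused, and each sample is a piece of whole tissue, in which fewer cells of a type and less RNA per cell cannot be told apart. Whether 1 number marks the same kidney in both tissues or at both times is not given by the labels.

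Fat cells store triglyceride in a single large droplet and release it as fatty acids when other tissues need fuel. They take up fatty acids that lipoprotein lipase frees from blood lipoproteins, carry them on a small binding protein, join them to glycerol and coat the droplet with perilipin. They also secrete hormones, adiponectin and leptin among them, and fat lies around the kidney and in its sinus, next to the renal pelvis and the large vessels. Several of these genes are also used outside fat, FABP4 by small vessels and FASN, SCD and DGAT2 by cells that make lipid.

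The array reads each gene with probes of 60 bases. The 7 that follow are shown because they read 7 of the members described below, 1 probe for each, and the position at which each starts on its transcript is that of the array file. The ADIPOQ and LPL probes shown were each well above background on 1 of the 40 arrays, the SCD probe on 20 and the other 4 on all 40, and the levels below are means over all probes of an identifier. They are printed 5′ to 3′ in lower case, with no stretch marked.
ADIPOQ, start 484: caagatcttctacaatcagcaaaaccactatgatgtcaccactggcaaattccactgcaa
FABP4, start 387: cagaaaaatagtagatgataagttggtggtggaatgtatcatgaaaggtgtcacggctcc
LPL, start 669: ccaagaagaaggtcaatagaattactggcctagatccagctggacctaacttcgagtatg
PPARG, start 1464: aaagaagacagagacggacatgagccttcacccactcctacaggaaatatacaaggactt
DGAT2, start 508: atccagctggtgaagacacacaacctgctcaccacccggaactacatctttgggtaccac
SCD, start 395: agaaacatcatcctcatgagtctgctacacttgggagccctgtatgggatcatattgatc
FASN, start 7111: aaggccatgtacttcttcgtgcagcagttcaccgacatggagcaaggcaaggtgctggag

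Values are log2 signals, normalized so that all 40 arrays have the same distribution, and a level was compared between arrays for 1 gene, never between genes. A spot counts as measured where the scanner software marks it well above background, which held for 57.01% to 69.91% of the spots of an array. On the 5 WI-CMJ arrays this share was 61.86% to 66.74%, within the range of the other groups. A gene was called where limma's moderated test gave an adjusted p under 0.05 and the log2 fold change was 0.5 or more in size.

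ADIPOQ, the gene of adiponectin, was high on 3 of the 40 arrays, all of them WI-CMJ. It has 3 identifiers on the array. For the first, EF601160, the log2 signal on WI-CMJ 1 to 5 was 6.22, 0.50, 7.05, 0.48 and 7.53, while the other 37 arrays lay between 0.36 and 1.11. For the second, JX092267, the values were 5.72, 0.29, 6.56, 0.53 and 7.20, against 0.24 to 1.30 on the other 37 arrays, of which WI+CS24h-C 4 was well above background. Arrays 1, 3 and 5 of the group thus stood far above the rest, and arrays 2 and 4 were at the level of the controls. No control array was well above background for either identifier, so that only a lower bound of the difference can be given.

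The bound sets each high array against the median of the 15 CMJ arrays outside WI, taken at the lowest signal that counts as measured. For EF601160 it was at least 15.8-fold higher on WI-CMJ 1, at least 27.9-fold higher on WI-CMJ 3 and at least 38.9-fold higher on WI-CMJ 5. For JX092267 it was at least 11.1-fold, at least 19.9-fold and at least 31.1-fold higher on the same arrays. The order of the arrays was the same for both identifiers, with array 5 highest. Unbounded differences from those dim signals are not measured folds and moved with their treatment. For EF601160 on WI-CMJ 1, 3 and 5 they were 5.65, 6.48 and 6.96 log2 units as processed here, 1.81, 2.46 and 2.89 in the matrix of the authors, and 0.61, 0.94 and 1.18 after normexp background correction, which adds an offset of 50 to the signals.

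The third identifier, NM_214370, has 1 probe that was measured on most arrays, and it moved less. Its log2 signal on WI-CMJ 1 to 5 was 3.31, 1.90, 3.88, 2.21 and 4.49, against 1.58 to 2.34 on the 15 other CMJ arrays and up to 3.00 in cortex. The same 3 arrays were again the highest of the 40. As group levels, WI-CMJ was at 3.16 ± 1.09 (SD, n = 5) and Ctl-CMJ at 1.91 ± 0.24 (SD, n = 5), a difference of 1.25 on the log2 scale that rests on arrays 1, 3 and 5. Without WI-CMJ 5 the difference was 0.92. The level averages the measured probe with 1 that was well above background on WI-CMJ 5 alone. In WI-C the identifier was measured on 1 of 5 arrays. The differences in level are therefore not measured folds. The remaining groups followed in the order WI+CS24h-C (2.31 ± 0.52), WI+CS6h-C (2.30 ± 0.54), WI+CS24h-CMJ (2.09 ± 0.23), WI+CS6h-CMJ (1.96 ± 0.14), WI-C (1.95 ± 0.34), Ctl-CMJ and Ctl-C (1.77 ± 0.14), and each neighbour in this order lay within the spread of the next.

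**Figure D1:**
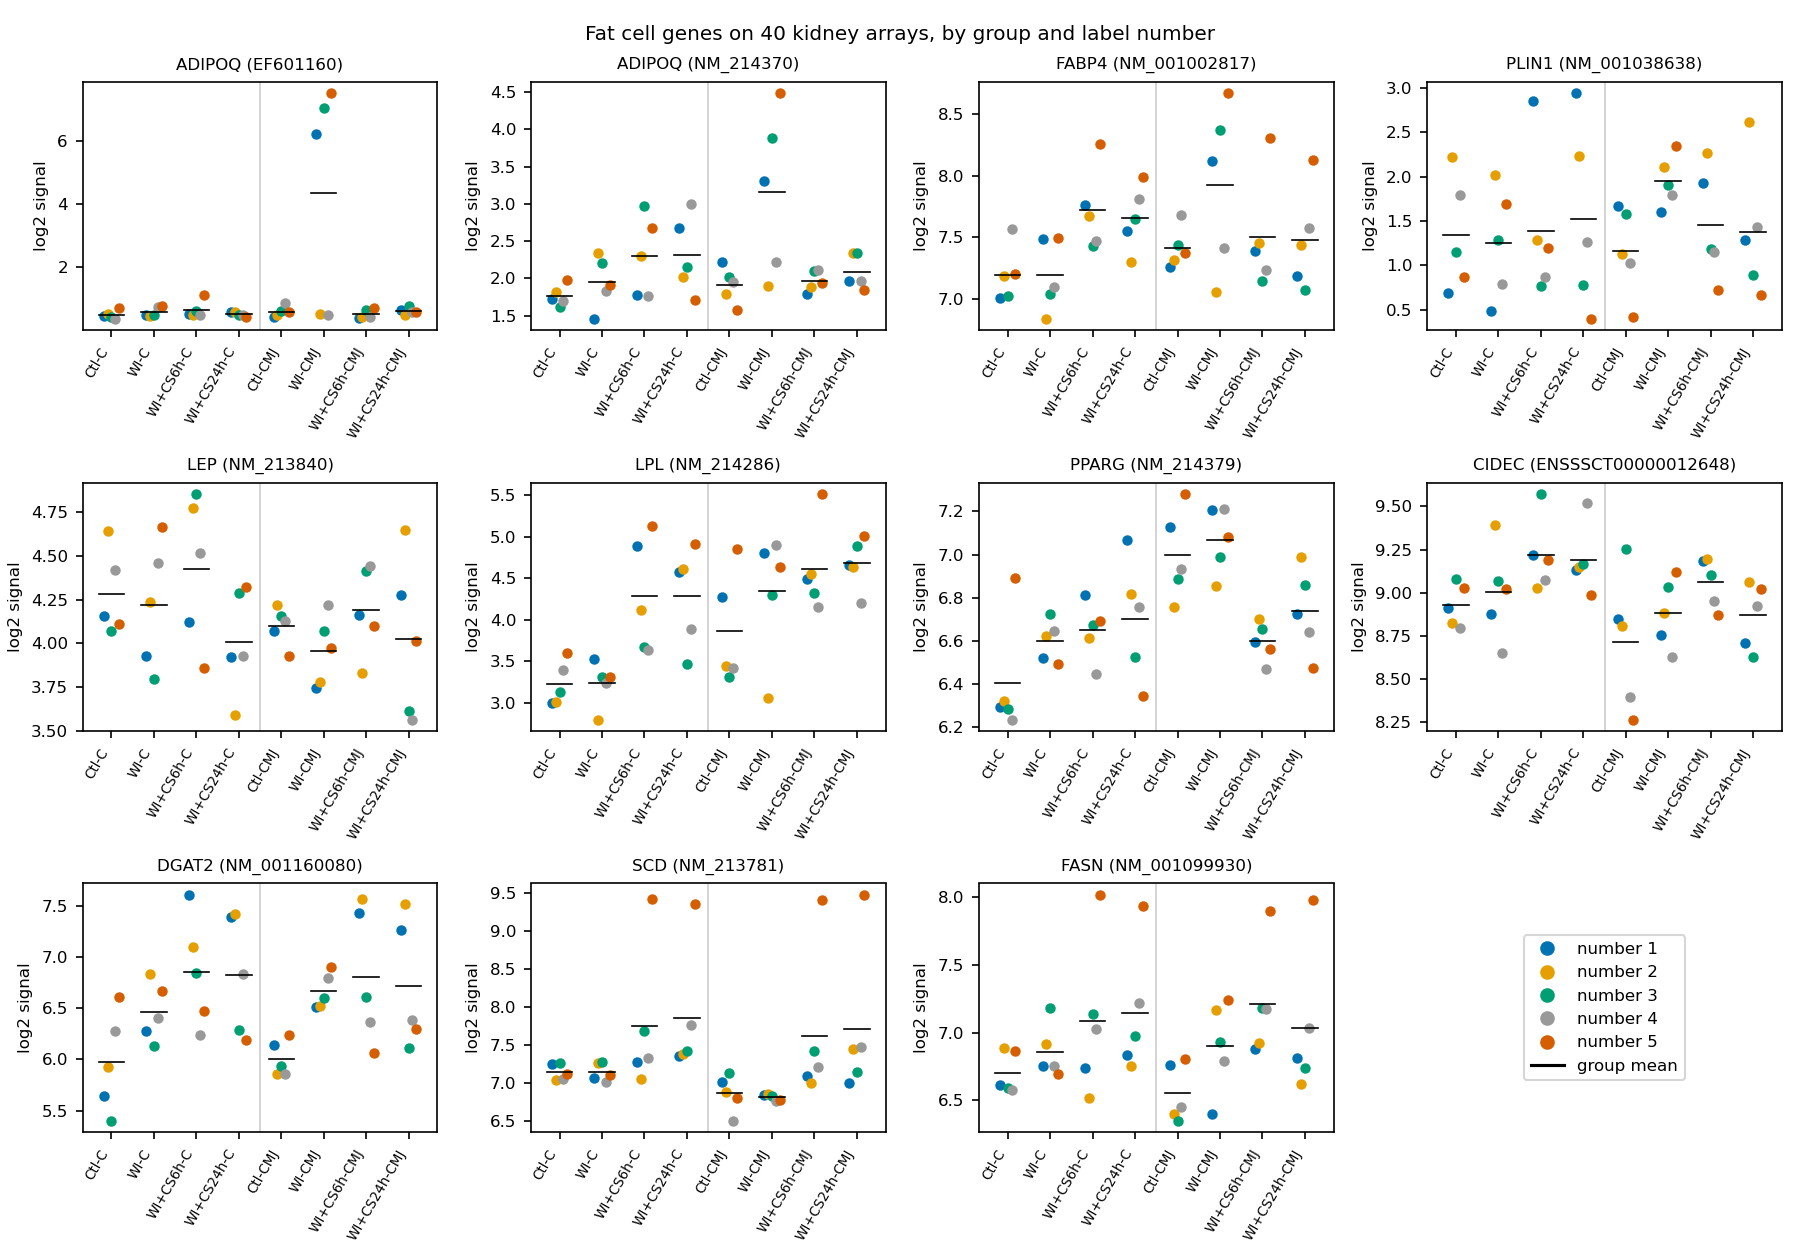
Log2 signal (vertical axis) of ADIPOQ identifier EF601160 and of the representative identifier of each of the 10 genes on all 40 arrays, by group (horizontal axis). Points are single arrays colored by the number in the label and lines are group means; ADIPOQ is high on WI-CMJ 1, 3 and 5, and SCD and FASN are high on number 5 of the 4 cold-stored groups.

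The single probes of ADIPOQ gave the same arrays. All 8 ADIPOQ probes were highest of the 40 arrays on WI-CMJ 5, and for all 8 the 3 highest of the 20 CMJ arrays were WI-CMJ 1, 3 and 5. The ADIPOQ probe printed above, which starts at base 484, was well above background on array 5 alone of the 40. The 2 probes of EF601160 overlap, and so do 3 of the 4 probes of JX092267, so that the 8 probes are not 8 separate readings. The 3 arrays lay on 3 slides, whose 9 other arrays read 0.40 to 1.11 for EF601160.

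**Figure D2:**
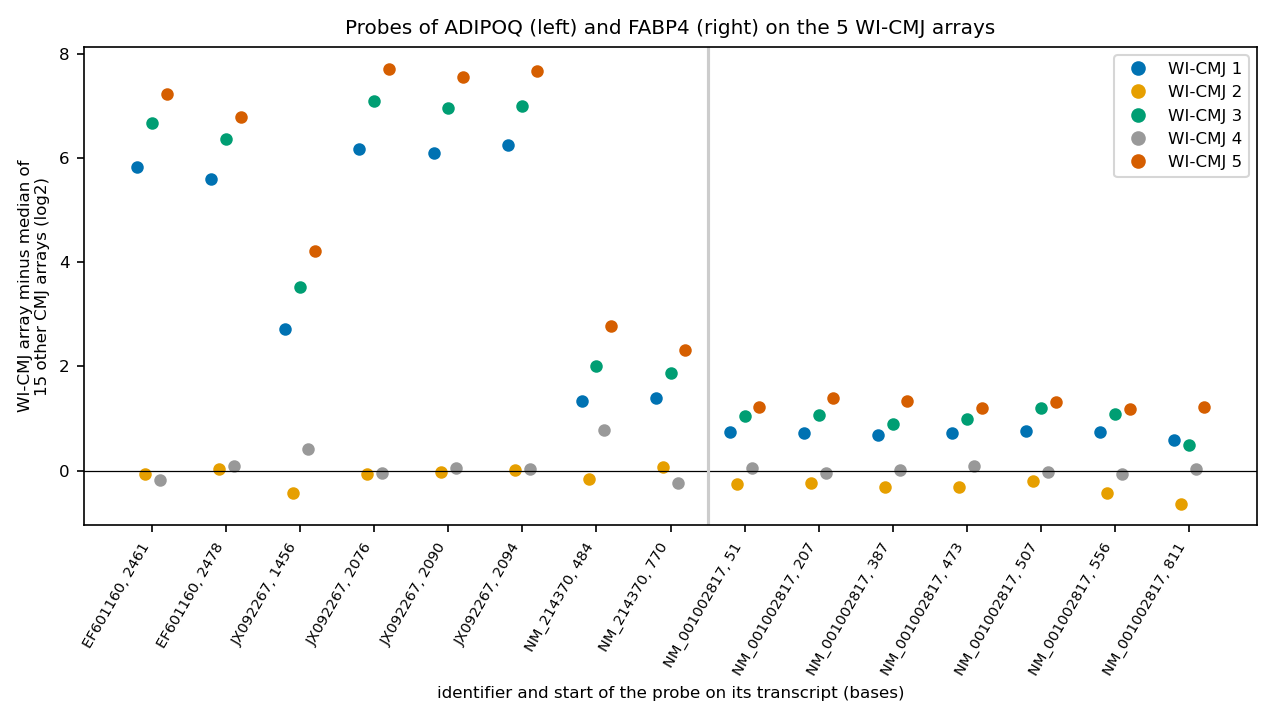
Log2 signal of each of the 8 ADIPOQ and 7 FABP4 probes on the 5 WI-CMJ arrays, minus the probe's median on the 15 other CMJ arrays (vertical axis), where 7 of the 8 ADIPOQ probes were never well above background. Each group of points is 1 probe; arrays 1, 3 and 5 lie above arrays 2 and 4 for every ADIPOQ probe, and array 5 is the highest for every FABP4 probe.

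LEP, the gene of the hormone leptin, did not share this pattern. Its log2 signal on WI-CMJ 1 to 5 was 3.75, 3.78, 4.07, 4.22 and 3.97, and on the 15 other CMJ arrays it lay between 3.56 and 4.65. The WI-CMJ arrays sat inside that range, and the 3 arrays with high ADIPOQ were 0.38, 0.06 and 0.15 log2 units under its median. The LEP level averages a probe at base 3082, well above background on all 40 arrays, with 1 at base 1074 that was so on 2.

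FABP4, which carries fatty acids inside fat cells and small-vessel endothelium, was the member closest to ADIPOQ on these arrays. Its log2 signal on WI-CMJ 1 to 5 was 8.11, 7.06, 8.37, 7.41 and 8.67, and the median of the 15 other CMJ arrays was 7.39. Arrays 1, 3 and 5 were again the high ones of the group, by 0.73, 0.98 and 1.28 log2 units over that median. The values were not set apart from all others, since WI+CS6h-CMJ 5 reached 8.30. All 7 FABP4 probes were highest of the 40 arrays on WI-CMJ 5.

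LPL, which frees fatty acids from lipoproteins on the wall of blood vessels, read 4.81, 3.06, 4.29, 4.89 and 4.64 on WI-CMJ 1 to 5, with a median of 4.49 on the 15 other CMJ arrays. Its low array was WI-CMJ 2, which was 1.43 log2 units under that median, and arrays 1, 3 and 5 differed from it by 0.32, -0.20 and 0.15.

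PLIN1, the perilipin that coats the droplet of fat cells, was well above background on 1 of the 40 arrays, which was WI+CS24h-C 1. On WI-CMJ 1 to 5 its log2 signal was 1.60, 2.11, 1.91, 1.79 and 2.34, none of it well above background. CIDEC, a droplet protein that helps small droplets fuse, has 2 identifiers that read differently. The brighter one, ENSSSCT00000012648, was between 0.29 under and 0.20 over the median of the 15 other CMJ arrays on the WI-CMJ arrays. The other, NM_001112689, had its highest CMJ values on WI-CMJ 5 and 3, at 6.51 and 6.37 against at most 6.32 on the 15 other CMJ arrays.

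PPARG, the receptor that drives fat cell formation, was 0.13 to 0.48 log2 units above the median of the 15 other CMJ arrays on the WI-CMJ arrays, with its highest CMJ value on a control, Ctl-CMJ 5. DGAT2, which adds the last fatty acid to a triglyceride, was 0.22 to 0.61 above. SCD, which puts a double bond into fatty acids, was 0.28 to 0.37 under its median on all 5 arrays. FASN, which builds fatty acids, differed by -0.41, 0.35, 0.12, -0.03 and 0.42. These medians include the stored arrays. Against the mean of Ctl-CMJ alone, the mean of WI-CMJ differed by 0.07 for PPARG, 0.66 for DGAT2, -0.05 for SCD and 0.35 for FASN. DGAT2 lay between 6.515 and 6.904 in WI-CMJ and between 5.852 and 6.234 in Ctl-CMJ. For these 4 genes arrays 1, 3 and 5 did not stand together above arrays 2 and 4.

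Counted with 1 identifier for each of the 10 genes, 1, 0, 1, 0 and 3 members were at least 1 log2 unit above the median of the 15 other CMJ arrays on WI-CMJ 1 to 5. Among all identifiers, 1.77%, 1.92%, 3.14%, 2.35% and 2.98% were that far above on the same arrays. The member on arrays 1 and 3 was ADIPOQ, and those on array 5 were ADIPOQ, FABP4 and PLIN1, the last not well above background. The highest of the 20 CMJ arrays was a WI-CMJ array for 2 of the 10 members, ADIPOQ and FABP4, and for 20.2% of all identifiers. Since these values chose the members, nothing is read from the counts.

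As a check of the name, the data do not show fat cell genes moving as a whole on the 3 arrays: ADIPOQ and FABP4 were high there, while PLIN1 was not well above background, and LEP, LPL, PPARG, DGAT2, SCD, FASN and the brighter identifier of CIDEC lay on these 3 arrays within the range of the 15 other CMJ arrays. The other identifier of CIDEC lay above that range on arrays 3 and 5. The range includes stored arrays, and DGAT2 lay above every Ctl-CMJ array on all WI-CMJ arrays. A list of 38 further genes known from fat cells has 32 on the array. Its median difference from the 15 other CMJ arrays was 0.01, 0.03, 0.13, 0.11 and 0.24 on WI-CMJ 1 to 5, beside -0.009, -0.014, 0.004, -0.004 and -0.008 for all identifiers. Of the 32 genes, 14 (43.8%) had their highest CMJ value on a WI-CMJ array and 9 (28.1%) on WI-CMJ 5, beside 20.2% and 7.73% of all identifiers.

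The 9 genes were CFD, LIPE, PNPLA2, RBP4, LGALS12, CAV1, ACSL1, ACSS2 and TUSC5. CFD, the fat cell protease adipsin, was 0.24, 0.18, 0.47, 0.06 and 0.82 log2 units above the median on WI-CMJ 1 to 5, and CAV1, the coat protein of membrane pits in fat and endothelial cells, differed by 0.42, 0.21, 0.58, -0.06 and 1.11. LIPE, the hormone-sensitive lipase, differed by 0.15, -0.09, 0.28, 0.08 and 0.46. All 3 were thus higher on arrays 1, 3 and 5 than on arrays 2 and 4, and the rest of the 9 were not. ACSL1 differed by 0.27, 0.59, 0.56, 0.37 and 0.84 and ACSS2 by 0.04, 0.34, 0.50, 0.51 and 0.74. TUSC5 differed by 0.09, -0.09, -0.26, -0.88 and 0.60. RBP4, a carrier of retinol made by liver and fat, differed by 1.34, 2.81, 2.67, -1.36 and 3.14. PNPLA2, a lipase of lipid droplets, differed by 0.10, 0.98, 1.03, 0.98 and 1.12. Array 2, where ADIPOQ was low, was thus among the high ones of both genes. These medians include stored tissue, where RBP4 was low, with CMJ means of 6.42 after 6 h and 6.31 after 24 h. Set against controls alone, RBP4 differed little, with means of 8.92 ± 1.86 (SD) for WI-CMJ and 8.63 ± 1.55 for Ctl-CMJ. The same means of PNPLA2 were 8.51 ± 0.42 and 7.81 ± 0.12. LGALS12, a galectin of fat cell droplets, was well above background on 1 of the 40 arrays.

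Among the WI-CMJ arrays, the median differences of the connective tissue and smooth muscle lists were largest on arrays 3 and 5. Of 16 connective tissue genes 9 are on the array, and their median difference was 0.31, 0.14, 0.42, -0.33 and 0.78 on WI-CMJ 1 to 5, with 5 of 9 highest on WI-CMJ 5. COL1A2, a chain of type I collagen, differed by 0.71, 0.16, 1.36, -0.40 and 1.91, and PI16, a marker of fibroblasts around vessels and in fat, by 0.53, 0.04, 1.43, -0.08 and 1.86. They were the highest of the list on array 5, where the other 7 genes lay between 0.38 and 1.27. Of 10 smooth muscle genes 5 are on the array, with a median difference of 0.09, 0.31, 0.63, 0.01 and 0.90 and 4 of 5 highest on WI-CMJ 5. CNN1, the calponin of smooth muscle, differed most, by 1.36, 0.39, 2.47, 0.00 and 3.06, while MYLK, the kinase of myosin light chain, differed by -0.25, -0.01, 0.08, 0.01 and 0.23. ACTA2, DES and SMTN lay between -0.10 and 0.10 on array 1 and between 0.60 and 1.11 on array 5.

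The mean log2 level of the connective tissue list lay between 7.27 and 8.51 in WI-CMJ and between 6.90 and 8.16 in the other 3 CMJ groups, and that of the smooth muscle list between 8.15 and 9.33 and between 7.62 and 8.83. The highest value of each was WI-CMJ 5. The 6 endothelial genes measured had median differences of -0.01, 0.15, 0.00, 0.09 and 0.07, the 6 proximal tubule genes -0.19, 0.09, -0.01, 0.14 and 0.01, and the 4 urothelium genes 0.20, -0.11, 0.01, -0.21 and 0.06. Of the mesothelium list WT1 alone is on the array, with -0.46, -0.20, 0.06, -0.37 and 0.06. The 4 leukocyte genes had 0.16, 0.29, 0.23, 0.32 and 0.50, the 2 red cell genes 0.78, -0.28, 0.71, 0.85 and 0.95, and the 6 genes of medulla and collecting duct 0.35, -0.22, -0.18, 0.18 and 0.01. The part of other tissue in the ADIPOQ values was not tested.

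**Figure D3:**
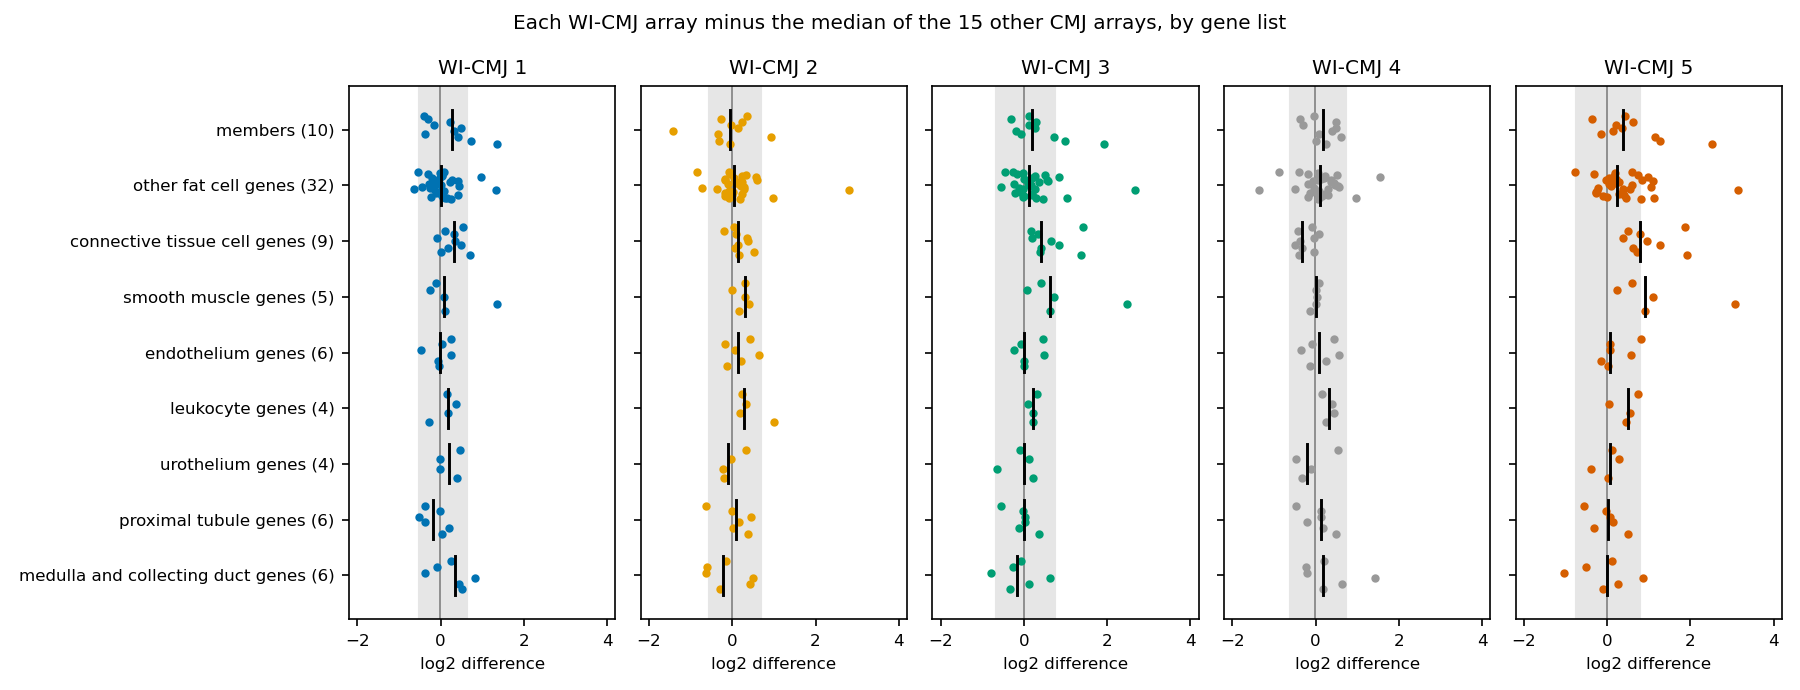
Difference of single genes from their median on the 15 other CMJ arrays (horizontal axis, log2 units), for the members and 8 other lists (vertical axis) on each WI-CMJ array (panels). Points are genes, black ticks are list medians and the grey band holds the 5th to 95th percentile of all identifiers. Among the lists drawn, the connective tissue and smooth muscle lists lie highest on array 5, with medians of 0.78 and 0.90. The red cell list (median 0.95 on array 5) and the mesothelium list are not drawn.

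The genes whose pattern over the 40 arrays was most like ADIPOQ were sought by Pearson correlation with NM_214370 among 6146 symbols measured on at least 3 arrays. They were ACAN (0.83), FBXL22 (0.80), MYOC (0.78), CNN1 (0.76), SNX12 (0.76), PROCR (0.76), PDZRN4 (0.76), MBP (0.76), CRP (0.73) and COL8A1 (0.73), and each was highest on WI-CMJ 5. The arrays share 3 high points, so that these values describe those arrays above all. MYOC, a secreted protein of connective tissue and nerve sheaths, was 2.66, 0.53, 3.45, -0.27 and 3.82 log2 units from the median of the 15 other CMJ arrays on WI-CMJ 1 to 5. That median was 1.41, and MYOC was well above background on 26 of the 40 arrays. Its differences start from dim signals and are not measured folds. COL8A1, a collagen of vessel walls, differed by 1.82, -0.25, 2.28, -0.24 and 2.65, and ACAN, the proteoglycan aggrecan, by 1.41, -0.47, 1.95, -0.05 and 2.28. MBP, the basic protein of myelin, differed by 0.71, -0.03, 1.11, 0.16 and 1.43, and PROCR, a receptor of protein C on endothelium, by 0.77, 0.09, 1.09, 0.22 and 1.44. With EF601160 as the reference, 6 of the 10 genes were shared, and MYOC led with 0.91.

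Among the members, FABP4 correlated best with NM_214370 over the 40 arrays (0.57), followed by PPARG (0.47) and, under both CIDEC identifiers, 0.39 and 0.30. PLIN1 had 0.31, DGAT2 0.26, LPL 0.24, FASN 0.11, SCD -0.08 and LEP -0.11. With EF601160, FABP4 had 0.625 and PPARG 0.406, and the other members lay between -0.2 and 0.215. These are descriptions over arrays of 8 groups that differ in treatment and tissue.

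The groups without WI-CMJ were compared for the 10 member identifiers outside ADIPOQ. In WI-C versus Ctl-C 0 of 10 were called, beside 0.0946% of all identifiers, and none had an unadjusted p under 0.05, beside 4.89%. WI+CS6h-C versus Ctl-C had 1 call beside 4.02%, and 5 unadjusted p under 0.05 beside 21.4%. WI+CS24h-C versus Ctl-C had 0 calls beside 2.5%, and 4 such p beside 16.2%. Against WI-C, 6 h of storage gave 0 calls beside 1.93% and 24 h gave 0 beside 1.2%, with 2 such p each, beside 15% and 11.4%. All these p belonged to higher values after storage. These comparisons share their control or WI arrays.

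In CMJ, WI+CS6h-CMJ versus Ctl-CMJ had 0 calls beside 3.19%, and 5 unadjusted p under 0.05 beside 16%, of which 4 were higher. WI+CS24h-CMJ versus Ctl-CMJ had 0 calls beside 3.65%, and 3 such p beside 17.7%, of which 2 were higher. Between 24 h and 6 h of storage 0 members were called in cortex, beside 0%, and 0 in CMJ, beside 0.00278%, with no unadjusted p under 0.05 in either. Ctl-CMJ versus Ctl-C had 1 call beside 0.312%. Tested as a difference of the cold storage effect between CMJ and cortex, 0 members passed an adjusted p under 0.05 at 6 h and 0 at 24 h, beside 0% and 0% of all identifiers, with 1 unadjusted p under 0.05 at each time, beside 5.17% and 2.58%. In all, 2 of 100 pairs of member and comparison were called, beside 1.69% of the pairs over all identifiers.

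LPL was the member called after cold storage. Its log2 signal in Ctl-C 1 to 5 was 3.00, 3.01, 3.13, 3.40 and 3.6, and in WI+CS6h-C 1 to 5 it was 4.88, 4.11, 3.67, 3.64 and 5.12. The groups did not overlap, with arrays 1 and 5 of the stored cortex highest. LPL rose by 1.06 ± 0.30 (log2 fold change ± SE, 95% interval 0.43 to 1.68, adjusted p = 0.0482 by limma), in 5 of 5 arrays. The adjusted p rose above 0.05 when any one of Ctl-C 1, 2, 3 and 4 and WI+CS6h-C 1 and 5 was left out, and ranged from 0.0196 to 0.137 over the 10 arrays left out in turn. Over the other ways of processing the fold change lay between 0.17 and 1.07, with an adjusted p of 0.0267 to 0.0982.

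At 24 h LPL in cortex read 4.57, 4.61, 3.46, 3.89 and 4.91, which overlapped the controls on array 3. The difference from Ctl-C was 1.06 (adjusted p = 0.0616 by limma) and did not pass. With the slide as a block the adjusted p was 0.0481 by limma, and with the replicate number as a block it was 0.0326. In 5 of 9 alternatives other than leaving out single arrays it did not pass either. In CMJ the differences from control were 0.74 at 6 h (95% interval -0.003 to 1.49) and 0.82 at 24 h (95% interval 0.07 to 1.57), with adjusted p of 0.315 and 0.231 by limma. In Ctl-CMJ 1 to 5 LPL read 4.27, 3.44, 3.32, 3.42 and 4.85, while the 10 stored arrays of CMJ lay between 4.15 and 5.51. Ctl-CMJ 2, 3 and 4 were thus under every stored array, and Ctl-CMJ 1 and 5 lay among them.

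PPARG was higher in control CMJ than in control cortex. It read 6.29, 6.32, 6.29, 6.24 and 6.89 in Ctl-C 1 to 5 and 7.13, 6.76, 6.89, 6.93 and 7.28 in Ctl-CMJ 1 to 5. Only Ctl-C 5 reached into the CMJ values, and the difference was 0.59 ± 0.12 (log2 ± SE, adjusted p = 0.0166 by limma), in 5 of 5 arrays. The call was lost when any one of Ctl-C 1, 2, 3 and 4 and Ctl-CMJ 1 and 5 was left out, with an adjusted p of up to 0.116, and over the other ways of processing the difference lay between 0.26 and 0.61. In WI+CS6h-CMJ, PPARG read 6.60, 6.70, 6.66, 6.47 and 6.57, under every control array of CMJ, and the difference of -0.40 (adjusted p = 0.0427 by limma) was below the fold limit of a call. The cold storage effect on PPARG differed between CMJ and cortex by -0.64 at 6 h (adjusted p = 0.836 by limma) and by -0.56 at 24 h (adjusted p = 1 by limma), which did not pass.

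The genes of triglyceride and fatty acid synthesis did not pass in any comparison as fitted here, and DGAT2 and FASN each passed once under an alternative. DGAT2 in cortex read 5.64, 5.92, 5.40, 6.28 and 6.61 in Ctl-C and 7.61, 7.10, 6.85, 6.24 and 6.47 in WI+CS6h-C, a difference of 0.88 (adjusted p = 0.0956 by limma, and 0.0397 without WI+CS6h-C 4). The groups overlapped through stored arrays 4 and 5 and control arrays 4 and 5. In CMJ its difference at 6 h was 0.80 (adjusted p = 0.142 by limma). FASN in WI+CS6h-CMJ lay above every Ctl-CMJ array, by 0.66 between the means (adjusted p = 0.153 by limma, and 0.0408 with the replicate number as a block). FABP4 differed by 0.52 in WI+CS6h-C (adjusted p = 0.0922 by limma), and in CMJ its difference from control was 0.09 at 6 h (95% interval -0.50 to 0.68). LEP differed from control by at most 0.27 in size in the cold-stored groups, with a 95% interval of -0.71 to 0.17 for the cortex at 24 h.

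**Figure D4:**
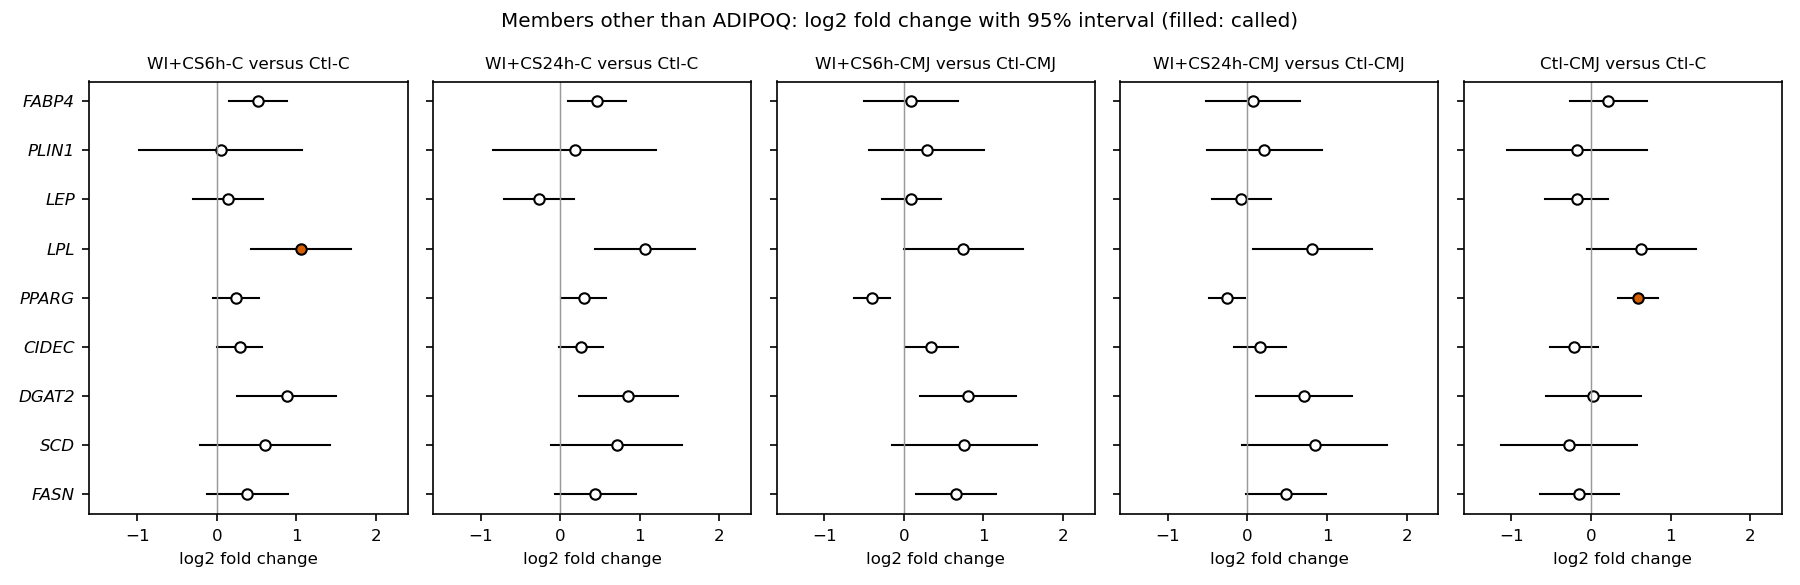
Log2 fold change with its 95% interval (horizontal axis) of the 9 members outside ADIPOQ (vertical axis), for 5 comparisons (panels) that do not use WI-CMJ. Filled points are called (PPARG in Ctl-CMJ versus Ctl-C and LPL after 6 h of storage in cortex), and open points did not pass.

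In the stored kidneys, the levels of SCD and FASN followed the number in the label, a pattern that was noticed after the values were seen. SCD on number 5 read 9.41 in WI+CS6h-C, 9.35 in WI+CS24h-C, 9.47 in WI+CS24h-CMJ and 9.40 in WI+CS6h-CMJ, while the 16 other cold-stored arrays reached at most 7.75. FASN on number 5 read 8.02, 7.94, 7.98 and 7.90 in the same groups, against at most 7.22. Number 5 was thus the high array in both tissues and at both times, by 2.01 to 2.13 log2 units over the median of the 16 others for SCD and by 1.00 to 1.12 for FASN.

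FABP4 was 0.54 to 0.86 and LPL 0.5 to 1.1 above that median on the 4 arrays of number 5. In all, 4 of the 10 members, SCD, FASN, FABP4 and LPL, had each of these 4 arrays above all 16 others, beside 4.57% of all identifiers. ADIPOQ differed by -0.39 to 0.57, LEP by -0.36 to 0.10 and PLIN1 by -0.89 to -0.10, and for these genes number 5 did not stand above the rest. DGAT2 was 0.50 to 0.91 under the median on number 5, and it was highest on numbers 1 and 2, which read 7.10 to 7.61 in both tissues and at both times. Of the other fat cell genes 8 of 32 (25%) had number 5 above all 16 others, namely CD36, GPD1, ACLY, SLC2A4, AGPAT2, DGAT1, ELOVL5 and INSIG1. INSIG1, which sets the pace of sterol and fatty acid synthesis, was 0.86 to 1.04 above, while ACSL1, which activates long-chain fatty acids, was 1.41 to 1.64 under the median on all 4. Without the 4 arrays of number 5, the rise of LPL in WI+CS6h-C was 0.85 and was not called.

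**Figure D5:**
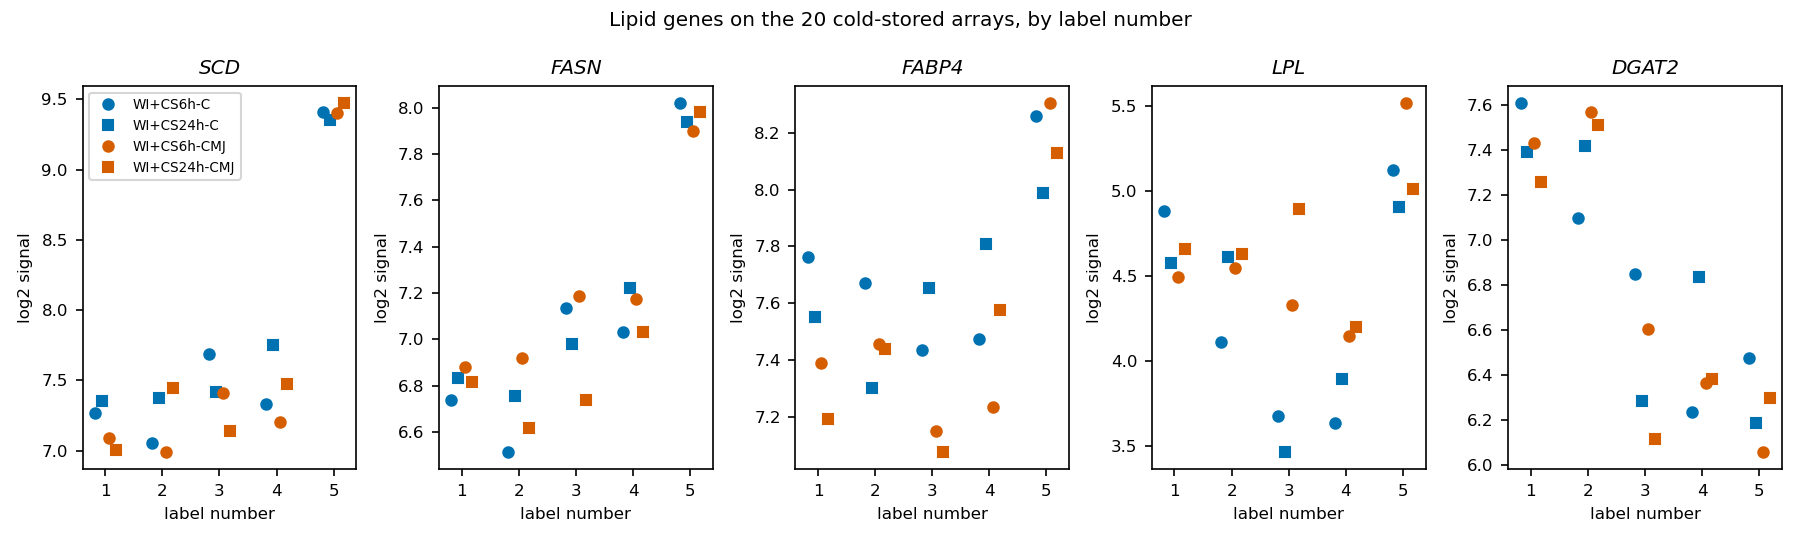
Log2 signal (vertical axis) of SCD, FASN, FABP4, LPL and DGAT2 on the 20 cold-stored arrays by the number in the label (horizontal axis), with 1 point for each tissue and time. SCD on number 5 lies between 9.35 and 9.47, above all others, and DGAT2 is highest on numbers 1 and 2.

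Of the 32 other fat cell genes, 5 were called in at least 1 of the 10 comparisons of groups, beside 7.11% of all identifiers. CEBPA, a transcription factor of fat cells and liver, was higher in all 4 comparisons of stored tissue with its control, by 0.84 and 0.89 in cortex and by 0.99 and 0.94 in CMJ at 6 h and 24 h (adjusted p = 0.0102, 0.0087, 0.00153 and 0.00227 by limma). It was not well above background on any control array, and was on 3, 5, 4 and 2 of the 5 arrays of these stored groups. After warm ischemia alone its mean was already above control, at 3.02 in WI-C against 2.52 in Ctl-C, without a call. In WI-CMJ, which was not tested, it was 2.95 against 2.19 in Ctl-CMJ. As a bound the stored groups of CMJ were at least 1.75-fold and at least 1.68-fold higher, while in cortex the dim control signals lay above the lowest measured signal and give no lower bound apart from the fitted values. After normexp correction the 4 differences were 0.025, 0.031, 0.051 and 0.083, and in the deposited log2 matrix 0.16, 0.19, 0.17 and 0.16, none of them called. PNPLA3, a lipase regulated with fatty acid synthesis, was higher in stored CMJ, by 0.75 at 6 h and 0.60 at 24 h (adjusted p = 0.0133 and 0.0427 by limma). In cortex its means were also higher after storage, 9.40 at 6 h and 9.46 at 24 h against 8.63 in Ctl-C, without a call.

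In 3 genes the call was a fall. RBP4 was lower in WI+CS6h-C than in Ctl-C by 2.11 on the log2 scale (adjusted p = 0.044 by limma), with 5.30 to 7.04 against 7.70 to 8.81. The other stored groups were also lower on average, without a call. RBP4 means were 6.36 in WI+CS24h-C against 8.44 in Ctl-C. In CMJ they were 6.42 at 6 h and 6.31 at 24 h against 8.63 in Ctl-CMJ. PNPLA2 fell by 1.03 at 6 h and by 1.09 at 24 h against WI-C (adjusted p = 0.02 and 0.0188 by limma), and MGLL, which cuts the last fatty acid from glycerol, fell by 0.54 at 6 h (adjusted p = 0.0363 by limma). When single arrays were left out, the call of RBP4 was lost in 8 of 10 fits, that of MGLL in 7 of 10, those of PNPLA2 in 6 of 20 and those of PNPLA3 in 7 of 20, and those of CEBPA in 0 of 40. Under the other alternatives, the call of RBP4 was lost in 4 of 9, with -2.95 to -1.04 and an adjusted p of up to 0.17, that of MGLL in 4 of 9, with -0.57 to -0.23, those of PNPLA3 in 5 of 20, all at 24 h, with 0.43 to 0.70, those of CEBPA in 8 of 38 and those of PNPLA2 in 0 of 18. By comparison with the median log2 fold change of all identifiers, the median of the 32 genes was 0.12 beside 0.05 for WI+CS6h-C against Ctl-C and 0.08 beside -0.01 in WI+CS6h-CMJ versus Ctl-CMJ.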

How the data were processed

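The authors deposited the intensity of each spot of 40 arrays as Agilent Feature Extraction 11.5.1.1 output, and a matrix of log2 values normalized by quantiles with limma (R 2.15.2, per the labels). Here the background-subtracted intensity of 43803 spots was log2 transformed, outlier spots (10 to 85 an array) were dropped, all arrays were quantile normalized together, and spots of 1 identifier were averaged. Linear models with 1 term for each group were fitted with limma 3.58.1 and statmod 1.5.0 in R 4.3.3 to the 20 arrays of a tissue, or to all 40 between tissues, with Benjamini-Hochberg adjustment over all identifiers. WI-CMJ arrays enter the estimate of the spread. Scripts were tested on simulated data, and figures were drawn with matplotlib 3.10.9.

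The members, the lists and the tests were chosen with earlier results of these data known. Named genes are all members, the 10 symbols most correlated with ADIPOQ, and other fat cell genes that were called or were highest on the CMJ array that is highest for ADIPOQ. Single genes of the marker lists and the number 5 genes were chosen after their values were seen. A gene with several identifiers is represented by the brightest. Genome coordinates were not used here. Same-numbered arrays at 6 h and 24 h deviated together in CMJ (correlations of 0.332 to 0.608 between deviations from group means), but not in every pair in cortex (-0.31 to 0.363). Between cortex and CMJ they did so at 6 h (0.135 to 0.457) and at 24 h (0.145 to 0.481). Alternatives were 75th percentile scaling, quantile normalization within groups, normexp background correction with an offset of 50, the deposited log2 matrix, a filter on dim identifiers, a fit per probe, the replicate number and the slide as blocks, and leaving out arrays.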

Additional observations from a re-analysis of the deposited data

Results flagged for a closer look

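In each group of 5 arrays, the member identifiers were examined for an array whose gap to its nearest neighbour took more than 0.71 of the range of the group. Of 104 groups 9 had one, where chance gives about 1 in 20, or 5.2. The groups are not independent, since some genes have several identifiers and the stored groups share kidneys. No excess is read from the count. In 4 of them the array was number 5 for SCD, with a gap of 0.732 of the range in WI+CS6h-C, 0.8 in WI+CS24h-C, 0.808 in WI+CS24h-CMJ and 0.825 in WI+CS6h-CMJ, each time the highest array. FABP4 had number 5 highest in WI+CS6h-CMJ with 0.734, and PPARG had Ctl-C 5 highest with 0.865. The other 3 concern signals that were not well above background: ADIPOQ EF601160 on WI+CS6h-C 5 with 0.774, ADIPOQ JX092267 on WI+CS24h-CMJ 2 with 0.892, and PLIN1 on WI+CS6h-C 1 with 0.75. The ADIPOQ values of WI-CMJ do not appear here, because with 3 high and 2 low arrays no single array stood alone.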

How the results depend on the processing

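No called member changed sign under an alternative. For WI+CS6h-C versus Ctl-C, the 1 call (LPL) became 0 under 75th percentile scaling, normexp background correction and the deposited log2 matrix and without the 4 cold-stored arrays of number 5, an alternative added after the data were seen, and ranged from 0 to 2 when single arrays were left out. In WI+CS24h-C versus Ctl-C the count of 0 became 1 with the dim filter, the fit per probe and the slide block (0 to 1 leaving out single arrays), in WI+CS6h-C versus WI-C it became 2 under quantile normalization within each group and 1 with the dim filter and the fit per probe (0 to 1), and in WI+CS24h-C versus WI-C it became 1 with the fit per probe (0 to 1). The 1 call in Ctl-CMJ versus Ctl-C (PPARG) became 0 under quantile normalization within each group, normexp correction and the deposited matrix, and ranged from 0 to 1. The ADIPOQ difference between WI-CMJ and Ctl-CMJ (NM_214370) was 0.086 under normexp, whose offset of 50 is added to dim signals, and 0.915 to 1.563 leaving out single arrays. Under all 5 settings compared, WI-CMJ 1, 3 and 5 were the 3 highest of the 40 arrays for each of the 3 ADIPOQ identifiers. Without these 3 arrays, an alternative also added later, the PPARG difference was still called. The cause of these changes was not tested. Precision is limited by 5 arrays in a group and, for ADIPOQ and PLIN1, by signals near background.

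With the replicate number as a replicate block, the count was 1 in place of 0 for WI+CS24h-C versus Ctl-C, for WI+CS24h-C and WI+CS6h-C versus WI-C (LPL in all 3) and for WI+CS6h-CMJ versus Ctl-CMJ (FASN, adjusted p = 0.0408); outside the cold-stored groups, samples share only a number. It changed no other count. Among the other fat cell genes no called value changed sign, and the calls of CEBPA were lost in 8 of 38 alternatives other than leaving out an array, all under normexp correction or the deposited matrix.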
